A study of Mus musculus with 36 samples.

Results

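Replication and mitosis genes are 38 genes whose products copy DNA and divide the cell, chosen by gene symbol from the 20098 genes listed in every library. They were read in lung and liver of male C57BL/6J wild-type mice, in 36 RNA sequencing libraries. Normal diet mice (ND), mice with diet-induced obesity (DIO) from a 45% high-fat diet that began 6 weeks before exposure, and mice with type 1 diabetes (T1D) from streptozotocin, 50 mg/kg on 5 consecutive days with a normal diet, breathed HEPA-filtered air (NDC, DIOC and T1DC) or ambient air carrying PM2.5 (NDE, DIOE and T1DE) for 4 weeks from an age of 14 weeks. Each of the 6 groups had 3 libraries in each tissue, and a library is named here by its group and replicate, so that T1DC2 is the second T1DC library. All T1D mice received streptozotocin, a DNA-alkylating agent, and no other group did, so the drug and the diabetes cannot be told apart. Separate animals are not named for the libraries, so p values measure the spread between these libraries.

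A dividing cell first licenses its origins of replication, loading the Mcm2 to Mcm7 helicase onto DNA with Cdc6 and Cdt1, then fires them under E and A cyclins and copies DNA on the Pcna clamp with deoxynucleotides from ribonucleotide reductase. Cyclins A and B with Cdk1 drive entry into mitosis, Aurora and polo kinases build the spindle, and the anaphase-promoting complex, started by Cdc20 and supplied by the ubiquitin-conjugating enzyme Ube2c, ends it. Promoters of S phase genes often carry sites for E2F, while promoters of G2 and M phase genes often carry CCAAT boxes, bound by NF-Y, and a cell cycle homology region (CHR), bound by the MuvB complex. Adult liver is a mostly quiescent tissue.

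The stretches just before the start sites are shown for members that moved together in T1D liver (Cdc20, Ccnb2, Ube2c, Cdk1 and Top2a). Others are shown for members tied to the replicative helicase. These are Mcm5, too low in liver for the filter of 1 FPKM in 3 libraries, Mcm6, which was not called, and Mcm10, which fell. All stretches are 160 bases each, from RefSeq on GRCm38.p6, read 5′ to 3′ on the gene's strand and ending at the base before the start. Capitals mark CCAAT boxes (CCAAT), CHR letters (TTTGAA or TTCGAA) and E2F letters (TTTCCCGC, TTTGGCGC, TTTGCCGC or TTTCGCGC), each on either strand. E2F matches can overlap one another.
Cdc20: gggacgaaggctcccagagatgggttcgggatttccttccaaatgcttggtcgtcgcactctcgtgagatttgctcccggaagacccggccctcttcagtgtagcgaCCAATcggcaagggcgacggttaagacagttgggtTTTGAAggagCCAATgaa
Ccnb2: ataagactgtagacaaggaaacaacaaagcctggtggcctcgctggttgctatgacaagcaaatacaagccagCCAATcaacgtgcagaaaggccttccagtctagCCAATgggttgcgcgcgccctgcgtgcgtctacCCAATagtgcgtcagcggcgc
Ube2c: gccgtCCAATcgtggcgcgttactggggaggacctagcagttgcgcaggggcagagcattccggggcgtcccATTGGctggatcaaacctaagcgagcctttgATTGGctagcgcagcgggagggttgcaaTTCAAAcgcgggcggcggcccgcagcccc
Cdk1: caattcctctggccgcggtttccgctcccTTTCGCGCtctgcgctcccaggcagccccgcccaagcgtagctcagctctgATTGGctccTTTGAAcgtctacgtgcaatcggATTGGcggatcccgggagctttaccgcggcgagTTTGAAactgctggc
Top2a: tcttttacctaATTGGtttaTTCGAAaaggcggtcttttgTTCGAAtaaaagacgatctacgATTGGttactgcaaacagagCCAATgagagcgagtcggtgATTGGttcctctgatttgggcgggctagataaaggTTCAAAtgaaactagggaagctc
Mcm5: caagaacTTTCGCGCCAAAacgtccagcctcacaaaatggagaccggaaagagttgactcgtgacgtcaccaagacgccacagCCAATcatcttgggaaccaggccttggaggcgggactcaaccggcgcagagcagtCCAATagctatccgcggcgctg
Mcm6: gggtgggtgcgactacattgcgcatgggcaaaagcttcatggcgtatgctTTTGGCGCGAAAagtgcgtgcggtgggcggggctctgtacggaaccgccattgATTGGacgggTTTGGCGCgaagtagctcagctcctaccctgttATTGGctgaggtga
Mcm10: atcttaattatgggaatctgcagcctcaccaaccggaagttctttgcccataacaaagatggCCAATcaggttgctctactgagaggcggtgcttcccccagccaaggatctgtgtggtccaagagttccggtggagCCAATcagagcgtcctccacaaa

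These stretches lie at chr4:118437344-118437503 (Cdc20, minus strand), chr9:70421555-70421714 (Ccnb2, minus strand), chr2:164769769-164769928 (Ube2c, plus strand), chr10:69352913-69353072 (Cdk1, minus strand), chr11:99024190-99024349 (Top2a, minus strand), chr8:75109349-75109508 (Mcm5, plus strand), chr1:128359706-128359865 (Mcm6, minus strand) and chr2:5012792-5012951 (Mcm10, minus strand). In Cdc20 a CHR lies 18 bases before the start, between CCAAT boxes at 53 and 8 bases before it. Ccnb2 has 3 CCAAT boxes, at 87, 54 and 21 bases before the start, and CHR letters at 167 bases before it, outside the stretch shown. Mcm6 has E2F letters at 110, 106 and 47 bases before the start. Of the Mcm genes not shown, Mcm2 has CHR letters at 70 bases and a CCAAT box at 175 bases before it, without E2F letters. Mcm3 has only CCAAT boxes, and Mcm7 has letters of every kind. RefSeq promoters were found for 30 of the 38 members. In the 250 bases before the start, CCAAT boxes were present in 11 of the 12 members that were higher in T1DE than in NDE liver and had a promoter in the table, in 12 of the 18 other members, and in 33.8% of all 32851 promoters. CHR letters were present in 6 of those 12, in 5 of those 18, and in 17.1% of all promoters. E2F letters were present in 1 of those 12, in 4 of those 18, and in 1.86% of all promoters. A letter match is a description of the sequence, not a bound site.

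The files give FPKM, fragments scaled to transcript length and to the fragments mapped in the library, which allows levels to be compared between genes. Lung and liver libraries each carried the defining markers of their tissue at high levels. The spacing of low FPKM values put the depth at about 15500000 to 19800000 fragments per library in lung and 16750000 to 18750000 in liver. Several libraries stood apart. Lung T1DE3, DIOE1 and DIOC3 listed 1796, 2030 and 2629 genes at 0, against 3081 to 3520 in the other lung libraries. T1DE3 also held the thymocyte gene Rag1 at 19.66 FPKM, against 0.18 or less elsewhere in lung. The summed thymocyte markers did not follow Rag1 alone, at 142.1 FPKM in T1DE3 and 88.87 FPKM in NDE3 lung. Liver NDC1, NDC3 and DIOE1 held lung transcripts, with the club cell gene Scgb1a1 at 23.0, 37.37 and 72.71 FPKM against 4.16 or less. In liver, T1DC2 listed 4803 genes at 0, where the other T1D libraries listed 3386 to 3744 and the ND and DIO libraries 4717 to 5415. Summed squamous epithelium markers ran from 1.03 to 3047 FPKM over the lung libraries and summed skeletal muscle markers from 8.53 to 1539.

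In lung the members' mean levels over 18 libraries ran from 0.598 to 71.0 FPKM with a median of 3.70, and in liver from 0.045 to 22.9 FPKM with a median of 0.640. The most abundant member in both tissues was Pcna, the sliding clamp, at 58.54 to 93.09 FPKM in lung and 18.12 to 29.75 FPKM in liver. Among licensing genes Mcm7 was highest, at 11.61 to 18.96 FPKM in lung and 4.07 to 6.76 FPKM in liver. Ube2c led the anaphase and cytokinesis genes in both tissues, with a median of 11.31 FPKM in lung and 1.185 FPKM in liver. Its lung level is uncertain, since it overlaps the muscle gene Tnnc2 and some lungs held skeletal muscle transcripts. Of the cyclins A and B and Cdk1, Ccnb2 was highest, with medians of 3.56 FPKM in lung and 0.42 FPKM in liver. Of the spindle genes the highest were Birc5, the survivin subunit of the chromosomal passenger complex, in lung (median 4.12 FPKM) and Aurka, a centrosomal kinase, in liver (median 1.19 FPKM). Top2a, the topoisomerase that untangles sister chromatids, led the last group in both, with medians of 6.44 FPKM in lung and 0.35 FPKM in liver.

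**Figure D1:**
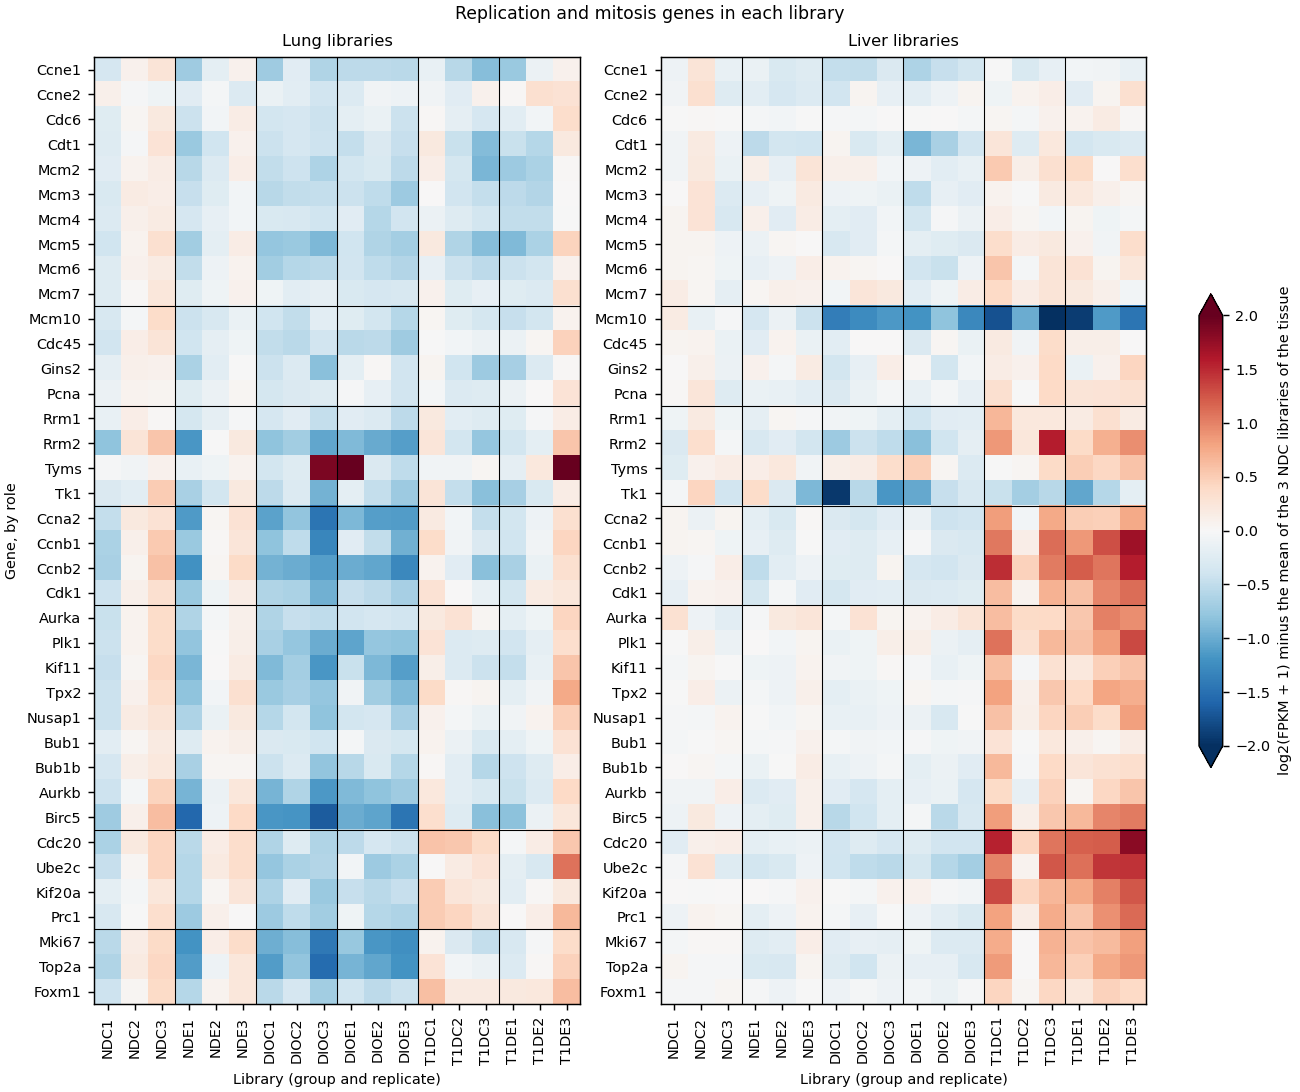
Difference of log2(FPKM + 1) from the mean of the 3 NDC libraries of the same tissue, for 38 genes (rows, grouped by role) in 18 lung (left) and 18 liver (right) libraries. Liver T1D libraries other than T1DC2 are red over the cyclins, spindle and anaphase genes, Mcm10 is blue in DIO and T1D liver, and lung DIO libraries are blue over most rows, with Tyms high in DIOC3, DIOE1 and T1DE3.

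In ND mice in filtered air, most members were higher in lung than in liver. A fit of limma to log2(FPKM + 1) over all 36 libraries called 33 of the 37 members tested higher in lung and 2 lower, at a Benjamini-Hochberg adjusted p under 0.05 and a fold of FPKM + 1 over 1.5. Of all genes tested, 68.0% were called higher in lung and 11.1% lower, with a median difference of 1.08 on the log2 scale, so the members' share has to be read against a broad difference between the tissues. With median-ratio scaling, which brought the all-gene median to 0.14, 26 members were higher in lung and 2 lower. With quantile scaling 15 were higher and 4 lower, 18 of the 35 calls were kept, and 27 of 37 differences were above 0 against 35 without rescaling, with Aurka (-0.40), Ccne1 (-0.61), Cdc45 (-0.40), Cdk1 (-0.10), Cdt1 (-0.23) and Rrm2 (-0.08) among those that turned. Lower in lung without rescaling and with median ratios were Mcm10, a replication fork factor, and Tk1, the salvage thymidine kinase. Mcm10 was at 0.56, 0.9 and 1.52 FPKM in NDC lung and 33.24, 26.6 and 29.01 FPKM in NDC liver. Tk1 was at 4.19, 4.48 and 8.05 FPKM in NDC lung and 12.05, 17.1 and 9.35 FPKM in NDC liver. Tk1 overlaps the liver gene Afmid on the opposite strand by 169 bases, Afmid stood at 42.93 to 68.8 FPKM in the same liver libraries, and strand use is not stated for the counting, so the Tk1 level in liver is uncertain.

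The largest movement of the members was in T1D liver, where genes of mitosis rose. Between T1DE and NDE liver the limma fit called 15 members higher and 1 lower of the 26 that passed the filter of 1 FPKM in 3 libraries. Of all genes tested, 8.24% were called higher and 1.26% lower. The filter matters here, because 13 of the 26 members reached it only through T1D libraries, so that their passing already reflects a high T1D level. Without any filter all 38 members were tested and 15 were called higher and 1 lower, against 4.51% and 0.607% of the 18957 genes. The 12 members that did not pass the filter were Ccne1, Ccne2, Cdc6, Cdc45, Gins2, Kif11, Nusap1, Bub1, Bub1b, Aurkb, Foxm1 and Mcm5. The median of all tested genes was itself 0.23 higher on the log2 scale in T1DE than in NDE liver, and after median-ratio scaling, which removed that shift, 12 members were higher and 1 lower. Quantile scaling kept 11 of the 16 calls. With a filter on the mean over the 18 libraries instead, 12 members were tested and 3 were called higher and 1 lower.

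All 4 of the cyclins A and B and Cdk1 were called higher in T1DE than in NDE liver. They passed the filter only through T1D libraries. All 4 were also called without a filter, where 4.51% of all genes were called higher. Ccnb2, a B cyclin, was at 0.04, 0.28 and 0.38 FPKM in NDE and 2.45, 2.1 and 3.4 FPKM in T1DE liver. The T1DE libraries lay above every NDE library, the ratio of mean FPKM was 11.4, and the difference was 1.56 ± 0.20 (SE) on the log2 scale (adjusted p = 0.000124). The share of all genes whose libraries lie apart is not given for T1D against ND liver. A lack of overlap, here and below, therefore only describes the values. Ccnb1, the B cyclin that moves to the nucleus at mitosis, was at 0.12, 0.05 and 0.25 FPKM in NDE and 1.29, 2.05 and 3.04 FPKM in T1DE liver. Its difference was 1.42 ± 0.22 (adjusted p = 0.000595), again without overlap between the groups. Cdk1, the mitotic kinase itself, was at 0.13, 0.4 and 0.24 FPKM in NDE and 1.18, 1.83 and 2.12 FPKM in T1DE liver, a difference of 1.10 ± 0.16 (adjusted p = 0.000308). Ccna2, cyclin A, was at 0.27, 0.18 and 0.48 FPKM in NDE and 1.05, 1.03 and 1.46 FPKM in T1DE liver, a difference of 0.74 ± 0.18 (adjusted p = 0.00821). Ccna2 overlaps Exosc9 on the opposite strand.

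All 4 genes of anaphase and cytokinesis also rose. Cdc20, Kif20a and Prc1 passed the filter only through T1D libraries, and all 4 genes were also called without a filter. Cdc20 was at 0.21, 0.24 and 0.27 FPKM in NDE and 2.16, 2.21 and 3.82 FPKM in T1DE liver, with a ratio of means of 11.4 and a difference of 1.56 ± 0.21 (adjusted p = 0.000181). At the estimated depth 1 fragment of Cdc20 was worth about 0.0308 FPKM, so its liver values rested on about 2 to 121 fragments. Ube2c was at 0.92, 1.0 and 1.3 FPKM in NDE and 4.3, 5.68 and 5.75 FPKM in T1DE liver, a difference of 1.59 ± 0.22 (adjusted p = 0.00027). Ube2c overlaps the muscle troponin gene Tnnc2 on the opposite strand by 1662 bases, and Tnnc2 was at 0.41 FPKM or less in every liver library. Kif20a, a kinesin of the central spindle, was at 0.25, 0.23 and 0.33 FPKM in NDE and 1.11, 1.52 and 1.96 FPKM in T1DE liver, a difference of 0.98 ± 0.17 (adjusted p = 0.00114). Prc1, which bundles microtubules at the midzone, was at 0.11, 0.19 and 0.33 FPKM in NDE and 0.87, 1.4 and 1.8 FPKM in T1DE liver, a difference of 0.95 ± 0.16 (adjusted p = 0.00111). Kif20a and Prc1 overlap Cdc23 and Rccd1 on the opposite strand, which were at 2.0 to 2.02 and 0.32 to 0.76 FPKM in NDE and at 2.65 to 2.82 and 0.51 to 0.79 FPKM in T1DE liver.

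Of the 9 spindle and checkpoint genes, 4 passed the filter and were called. Plk1, Birc5 and Tpx2 passed it only through T1D libraries, so their passing already reflects a high T1D level. Without a filter the same 4 of 9 were called, where 4.51% of all genes were called higher. Plk1, the polo kinase, was at 0.22, 0.17 and 0.26 FPKM in NDE and 0.82, 1.17 and 2.02 FPKM in T1DE liver, a difference of 0.91 ± 0.18 (adjusted p = 0.00296). Birc5 was at 0.45, 0.4 and 0.78 FPKM in NDE and 1.59, 2.26 and 2.41 FPKM in T1DE liver, a difference of 1.00 ± 0.18 (adjusted p = 0.00161). These groups did not overlap either. Tpx2, which activates Aurora A on the spindle, was at 0.27, 0.21 and 0.4 FPKM in NDE and 0.72, 1.25 and 1.15 FPKM in T1DE liver, a difference of 0.65 ± 0.15 (adjusted p = 0.0054). Aurka was at 0.8, 1.11 and 1.18 FPKM in NDE and 1.67, 2.69 and 2.51 FPKM in T1DE liver, a difference of 0.69 ± 0.15 (adjusted p = 0.00462). Tpx2 and Aurka were no longer called after median-ratio scaling. The other 5 stayed under 1 FPKM in nearly all liver libraries, and their differences in the fit without a filter were all above 0.

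Among the markers of proliferation, Mki67, the Ki-67 antigen, was at 0.1, 0.13 and 0.44 FPKM in NDE and 0.94, 1.03 and 1.31 FPKM in T1DE liver, a difference of 0.78 ± 0.16 (adjusted p = 0.00314). Top2a was at 0.11, 0.1 and 0.43 FPKM in NDE and 0.92, 1.33 and 1.51 FPKM in T1DE liver, a difference of 0.90 ± 0.18 (adjusted p = 0.00251). Mki67 and Top2a passed the filter only through T1D libraries, so their passing already reflects a high T1D level. Both were also called without a filter, where 4.51% of all genes were called higher. Foxm1, a transcription factor of G2 and M phase genes, was at 0.04 to 0.57 FPKM over all liver libraries and did not pass the filter. It was at 0.12, 0.06 and 0.14 FPKM in NDE and 0.34, 0.57 and 0.5 FPKM in T1DE liver. These groups do not overlap, though Foxm1 was not called in the fit without a filter.

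**Figure D2:**
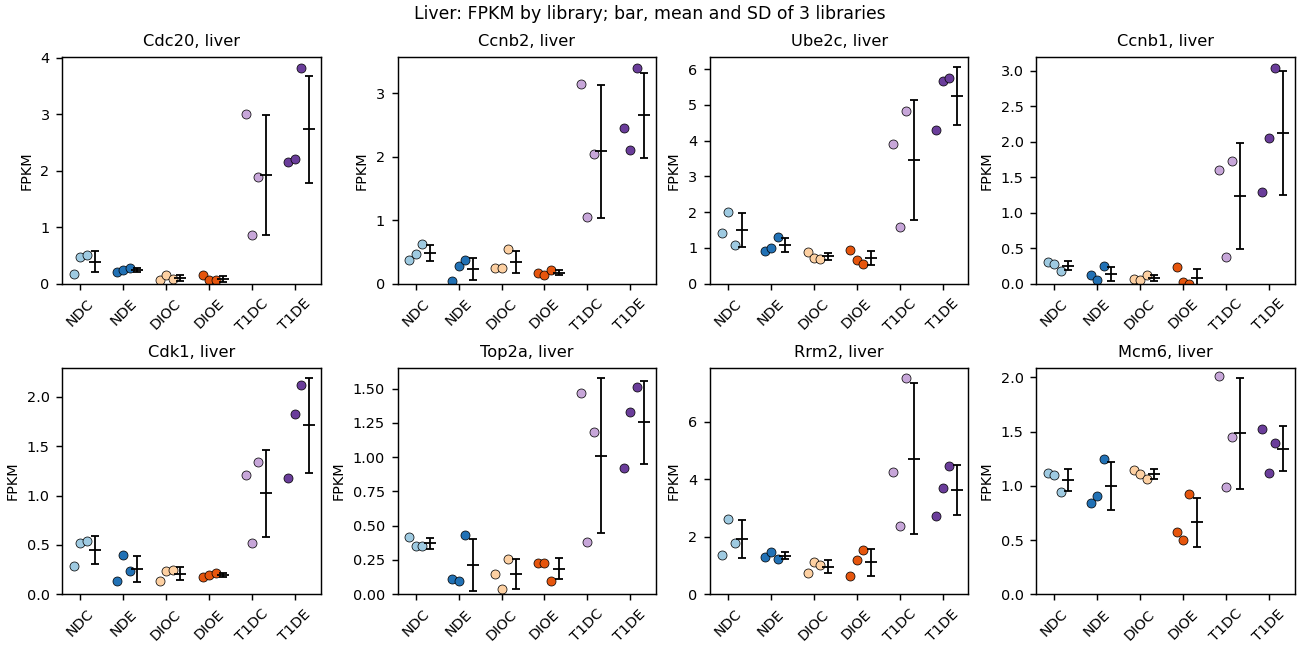
FPKM of 8 members in each liver library (points, by group) with the mean and SD of 3 libraries (bars). For Cdc20, Ccnb2, Ube2c, Ccnb1, Cdk1 and Top2a all 3 T1DE libraries lie above all ND and DIO libraries and T1DC2 is the lowest T1D library, while the Mcm6 values of NDE (0.84 to 1.25) and T1DE (1.12 to 1.52) overlap.

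None of the 6 G1/S and licensing members that passed the filter was called between T1DE and NDE liver. Their ratios of mean FPKM were 1.15 for Cdt1, 1.29 for Mcm2, 1.18 for Mcm3, 0.954 for Mcm4, 1.34 for Mcm6 and 1 for Mcm7. In the fit without a filter, the 10 members of this group differed by -0.02 to 0.32 on the log2 scale with a median of 0.14, where the median of all genes was 0.11. Ccne2 and Cdc6 were in that group at means of 0.137 and 0.0133 FPKM in NDE and 0.437 and 0.103 FPKM in T1DE liver, ratios of 3.2 and 7.75 at levels under the filter. In the fit without a filter Ccne2 differed by 0.32 ± 0.15 (adjusted p = 0.139) and Cdc6 by 0.12 ± 0.03 (adjusted p = 0.0201), a fold of FPKM + 1 under 1.5. Pcna was at 20.24, 20.03 and 19.18 FPKM in NDE and 27.01, 27.38 and 27.98 FPKM in T1DE liver, which do not overlap, but the fold did not reach 1.5. Of the nucleotide supply genes Rrm2, the regulated subunit of ribonucleotide reductase, was called higher: it was at 1.31, 1.47 and 1.23 FPKM in NDE and 2.74, 3.71 and 4.45 FPKM in T1DE liver (0.97 ± 0.26, adjusted p = 0.013, and 0.0514 after median-ratio scaling). Whether the mitosis genes differed more than the licensing genes was not tested as a difference between lists.

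In filtered air the same direction was seen with a wider spread. Between T1DC and NDC liver, 7 members were called higher and 1 lower, against 4.39% and 0.824% of all genes tested, and without a filter 4 were higher and 1 lower, against 2.02% and 0.311%. The 7 were Ube2c, Kif20a, Plk1, Cdc20, Rrm2, Ccnb1 and Ccnb2, and all 7 were also among the 15 of T1DE against NDE. Of these, Kif20a, Plk1, Cdc20, Ccnb1 and Ccnb2 had no liver library at 1 FPKM outside T1D. They passed the filter only through T1D libraries, so their passing already reflects a high T1D level. Cdc20 was at 0.18, 0.48 and 0.51 FPKM in NDC and 3.0, 0.87 and 1.89 FPKM in T1DC liver, a difference of 1.01 ± 0.21 (adjusted p = 0.00809). Ccnb2 was at 0.38, 0.46 and 0.62 FPKM in NDC and 3.15, 1.05 and 2.05 FPKM in T1DC liver, a difference of 1.00 ± 0.20 (adjusted p = 0.0064). Kif20a was at 0.26, 0.24 and 0.25 FPKM in NDC and 2.12, 0.68 and 0.98 FPKM in T1DC liver, a difference of 0.80 ± 0.17 (adjusted p = 0.00872). For each of these genes T1DC2 was the lowest T1DC library, though still above the NDC libraries. Plk1 was at 0.21, 0.31 and 0.12 FPKM in NDC and 1.57, 0.51 and 0.89 FPKM in T1DC liver, and Ccnb1 at 0.3, 0.28 and 0.18 FPKM and 1.6, 0.37 and 1.73 FPKM. Rrm2 was at 1.35, 2.63 and 1.79 FPKM in NDC and 4.26, 2.37 and 7.54 FPKM in T1DC liver, and Ube2c at 1.42, 2.0 and 1.07 FPKM and 3.92, 1.59 and 4.84 FPKM, so that both overlapped through T1DC2. The number of members called, 8 in all, became 15 without T1DC2, 3 without T1DC1, 4 without T1DC3, 5 without NDC1 and 4 without NDC3. With only the NDC and T1DC libraries in the fit it was 1, and without the 3 liver libraries that held lung transcripts, 2 of them NDC, it was 0.

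Against DIO mice the same genes stood out in both airs. Between T1DC and DIOC liver 14 members were called higher and none lower, against 5.74% and 0.861% of all genes. Of those 14, 12 had no liver library at 1 FPKM outside T1D and so passed the filter only through the group where they were high. Without a filter 14 were again higher and none lower, against 2.91% and 0.364% of all genes. Between T1DE and DIOE liver 15 were higher and none lower, against 17.6% and 1.38%, where the median of all genes was 0.35 higher, 12 of the 15 passed the filter in the same way, and without a filter 16 were higher and none lower, against 9.86% and 0.686%. With a filter on the mean, which tested 12 members, 2 were called in filtered air and 3 in PM. Median-ratio scaling kept 12 of the 14 calls in filtered air and 13 of the 15 in PM. Quantile scaling kept 11 and 12 of them. All 14 and all 15 were among the 16 members called between T1DE and NDE. These comparisons share T1D libraries with those above. Cdc20 was at 0.06, 0.15 and 0.09 FPKM in DIOC liver and at 0.15, 0.06 and 0.06 FPKM in DIOE liver, below every T1D library. Its difference was 1.34 ± 0.21 in filtered air (adjusted p = 0.000982) and 1.75 ± 0.21 in PM (adjusted p = 3.92e-05). Ube2c was at 0.88, 0.73 and 0.69 FPKM in DIOC and 0.93, 0.67 and 0.54 FPKM in DIOE liver. Its differences were 1.25 ± 0.22 (adjusted p = 0.00249) and 1.86 ± 0.22 (adjusted p = 3.92e-05). Without T1DC1 the number between T1DC and DIOC fell from 14 to 6, and with those groups alone in the fit it was 1.

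Markers of other cells moved with T1D liver in part. Of 7 alveolar macrophage markers, 5 were tested and 3 were called higher in T1DE than in NDE liver, and their summed level was 12.61 to 30.09 FPKM in NDE and 40.27 to 91.4 FPKM in T1DE. In T1DC against NDC none of these 5 was called. Hepatocyte markers were lower, with 1 of 4 called in T1DE against NDE (a sum of 29950 to 39640 against 53700 to 59430 FPKM) and 2 of 4 in T1DC against NDC (28770 to 46650 against 57160 to 73700 FPKM). Of 4 brown fat markers 2 were tested, and 1 was called lower in T1DE than NDE and none in T1DC than NDC. Few markers of the other cells reached the filter in liver: 1 of 6 T cell, 2 of 6 B cell, 3 of 8 erythroid precursor and 5 of 6 neutrophil markers were tested in T1DE against NDE and none was called. Summed T cell markers were at 1.42 to 4.55 FPKM in NDE and 1.9 to 4.21 FPKM in T1DE liver, and the thymocyte genes Rag1, Rag2 and Arpp21 were under 0.1 FPKM in every liver library. All thymocyte markers summed to 124.9 to 151.1 FPKM in NDE and 121.7 to 126.2 FPKM in T1DE liver. An erythroid precursor covariate kept all 16 calls between T1DE and NDE. Beyond that fit, the part of these cells in the rise of the members was not tested. In bulk tissue more dividing cells and more RNA per cell cannot be told apart.

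Mcm10 went the other way in liver. It was at 33.24, 26.6 and 29.01 FPKM in NDC and 23.06, 27.22 and 21.69 FPKM in NDE. It was at 10.73, 11.7 and 12.73 FPKM in DIOC, 12.38, 16.51 and 11.46 FPKM in DIOE, 8.14, 14.36 and 6.56 FPKM in T1DC, and 7.19, 12.84 and 10.04 FPKM in T1DE. Every ND library lay above every DIO and T1D library. It was called lower in DIOC than NDC (-1.26 ± 0.22, adjusted p = 0.00679), in T1DC than NDC (-1.58 ± 0.22, adjusted p = 0.000585) and in T1DE than NDE (-1.21 ± 0.22, adjusted p = 0.00173), and not in DIOE than NDE (-0.80 ± 0.22, adjusted p = 0.0918). Without the 3 liver libraries that held lung transcripts the NDC group had 1 library, the differences of DIOC and T1DC from NDC were -1.12 and -1.44, and neither was called. Between DIOC and NDC liver Mcm10 was the 1 member called, where 0.842% of all genes were called lower and 0.666% higher, and no member was called higher. Without DIOC2 2 members were called. The libraries did not overlap for 15 of 38 members, all lower in DIOC, against 7.59% of all genes. In PM no member was called between DIOE and NDE liver, where 0.333% of all genes were called higher and 0.666% lower, and Pcna had the smallest p of those above 0 (0.05 ± 0.12, adjusted p = 0.832). Mcm10 was the most abundant member in NDC liver, while its partners of the fork, Cdc45 and Gins2, were at 0.67 FPKM or less there. No other protein-coding gene overlaps Mcm10 in GENCODE M21, where it lies on chromosome 2.

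**Figure D3:**
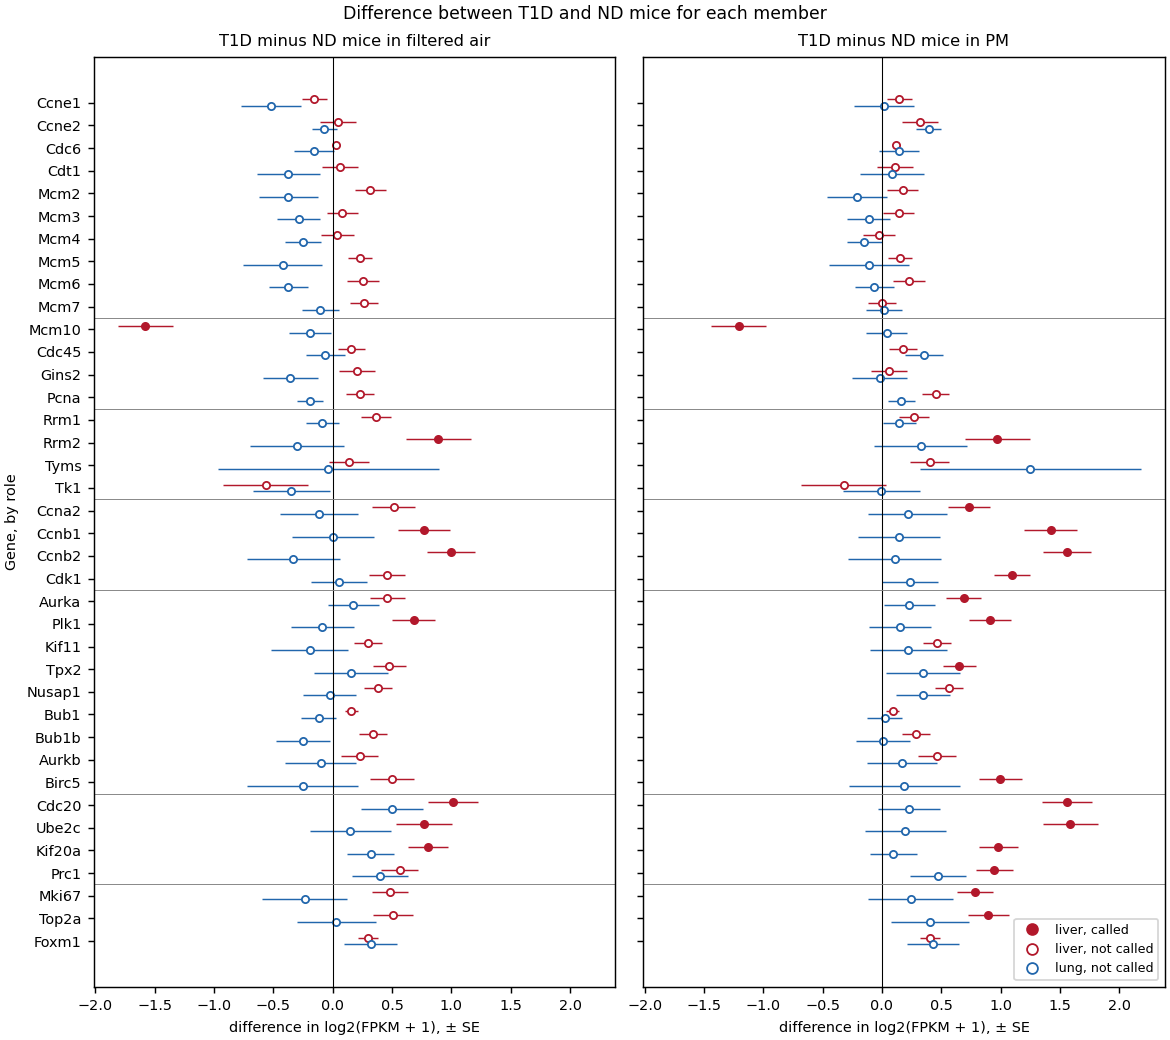
Difference of log2(FPKM + 1) between T1D and ND mice, ± SE, for each of 38 members in filtered air (left) and in PM (right), liver in red and lung in blue, from the fits without a filter; filled circles passed the test of the filtered fit. Filled circles are liver genes of mitosis with Rrm2 to the right and Mcm10 to the left, and no lung gene is filled.

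Breathing PM did not call a member in any state or tissue. Of all tested genes, 0.00925% were called higher and none lower in liver between NDE and NDC, none between DIOE and DIOC, and 0.629% and 0.287% between T1DE and T1DC. The members with the smallest p in liver were Cdt1, which was lower in PM in ND (-0.43 ± 0.15, adjusted p = 0.767), DIO (-0.50 ± 0.15, adjusted p = 0.2) and T1D mice (-0.38 ± 0.15, adjusted p = 0.298), and, in the higher direction, Aurka in ND (0.14 ± 0.15, adjusted p = 0.944), Tk1 in DIO (0.61 ± 0.34, adjusted p = 0.423) and Cdk1 in T1D mice (0.43 ± 0.16, adjusted p = 0.247). Cdt1, the licensing factor, which lies within the readthrough gene model Gm20388, was at 1.55, 2.03 and 1.49 FPKM in NDC, 0.87, 1.08 and 1.04 in NDE, 1.79, 1.18 and 1.33 in DIOC, 0.42, 0.71 and 1.05 in DIOE, 2.17, 1.24 and 2.1 in T1DC, and 1.07, 1.16 and 1.22 in T1DE liver. The PM libraries lay below the filtered air libraries in each state, in T1D by 1.22 against 1.24 FPKM, though none of these differences was called. The share of all genes for which this holds is not given. With an unadjusted p under 0.05 and a fold over 1.5 the count of members was 0 in each state, against 0.278% of genes higher and 0.416% lower in ND, 0.305% and 1.09% in DIO, and 1.07% and 0.648% in T1D liver. None of the differences of PM effect between states was called for a member in liver, where 0.231% of genes were called higher and 0.185% lower between T1D and ND and 0.268% and 0.0648% between T1D and DIO, with the smallest p for Cdk1 between T1D and ND (0.64 ± 0.22, adjusted p = 0.293), for Tk1 between DIO and ND (0.88 ± 0.48, adjusted p = 0.828) and for Tyms between T1D and DIO (0.48 ± 0.23, adjusted p = 0.3). In the lower direction these were Mcm7 (-0.27 ± 0.17, adjusted p = 0.665), Mcm6 (-0.31 ± 0.19, adjusted p = 0.839) and Tk1 (-0.64 ± 0.48, adjusted p = 0.511). The Tyms level in liver is uncertain, as set out below with its lung values.

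In lung, 37 of 38 members passed the filter, and none was called in the 12 comparisons within the tissue. Cdc6 did not pass. In PM against filtered air all 37 differences of ND mice were below 0, with a median of -0.23 where the median of all genes was -0.04, and the smallest p was that of Mcm10 (-0.29 ± 0.19, adjusted p = 1.0). NDE1 was the lowest NDE library for 37 of 38 members, with a median member level of 1.885 FPKM against 3.735 and 4.835 in NDE2 and NDE3 and 2.745 to 5.79 in NDC. Without NDE1 the median difference was 0.03 and 21 of the differences were above 0, and without NDC3 it was -0.05. In DIO mice the smallest p in each direction were those of Gins2, a fork subunit (0.33 ± 0.23, adjusted p = 1.0), and Mcm7 (-0.16 ± 0.15, adjusted p = 1.0), and in T1D mice those of Ccne2, an E cyclin (0.28 ± 0.13, adjusted p = 0.409), and Kif20a (-0.32 ± 0.20, adjusted p = 0.568). With an unadjusted p under 0.05 and a fold over 1.5 the count of members was again 0 in each state, against 0.129% of genes higher and 0.215% lower in ND, 0.0573% and 0.107% in DIO, and 0.429% and 1.09% in T1D lung. By the adjusted p, 0.115% of genes were higher and 0.0501% lower in T1D lung in PM. No difference of PM effect between states was called for a member in lung, where 0.00716% of genes were called lower between T1D and ND and none in the others. The smallest p were those of Gins2 (0.62 ± 0.32, adjusted p = 1.0) and Mcm7 (-0.08 ± 0.22, adjusted p = 1.0) between DIO and ND, of Ccne2 (0.47 ± 0.18, adjusted p = 0.715) and Kif20a (-0.22 ± 0.28, adjusted p = 0.964) between T1D and ND, and of Cdc45 (0.30 ± 0.24, adjusted p = 0.917) and Kif20a (-0.36 ± 0.28, adjusted p = 0.914) between T1D and DIO.

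DIO lungs gave low values for most members, though no member passed the test. In DIOC against NDC lung, 36 of 37 differences were below 0, with a median of -0.53 where that of all genes was -0.03. Of all genes tested, 0.0644% were called higher and 0.0429% lower. By the looser rule of an unadjusted p under 0.05 and a fold over 1.5, 15 members were lower, against 1.4% of all genes, and 0 were higher, against 1.32%. The libraries did not overlap for 26 of 38 members, all lower in DIOC, against 11.2% of all genes. Top2a was at 4.63, 8.6 and 10.35 FPKM in NDC and 2.9, 3.93 and 1.91 FPKM in DIOC lung. Birc5 was at 4.31, 8.26 and 12.27 FPKM in NDC and 2.85, 2.82 and 1.73 FPKM in DIOC lung. Mcm6, a helicase subunit, had the smallest p: it was at 12.01, 15.63 and 16.55 FPKM in NDC and 8.66, 9.46 and 9.76 FPKM in DIOC lung (-0.60 ± 0.16, adjusted p = 0.232). In PM the median difference of DIOE from NDE was -0.31 and the libraries did not overlap for 2 members, both lower, against 3.09% of all genes, and NDE1 was the lowest NDE library for 37 of 38 members. No member was called there, where 0.00716% of genes were called higher and 0.0215% lower, and by the looser rule 5 members were lower and 0 higher, against 0.379% and 1.88%. The smallest p there was that of Plk1, at 1.73, 3.67 and 4.08 FPKM in NDE and 1.25, 1.76 and 1.69 FPKM in DIOE lung (-0.65 ± 0.26, adjusted p = 0.892). Markers of several other cells moved with these values. Between DIOC and NDC lung, where none of the markers was called, all 8 squamous markers (median difference 2.97), all 8 skeletal muscle markers (1.56), all 4 brown fat markers (1.23) and all 6 neutrophil markers (1.31) were higher. Squamous sums were 1864 and 3047 FPKM in DIOC1 and DIOC2 but 1.12 in DIOC3, where the median member level was 1.62 FPKM against 2.245 and 2.615 in the other DIOC libraries. All 6 T cell (-0.76), all 6 B cell (-0.23), all 4 plasma cell (-0.44) and the 3 tested thymocyte markers (-0.90) were lower. Summed T cell markers were at 117.2 to 172.2 FPKM in NDC, 70.65 to 92.58 in DIOC, and 78.44 in NDE1 against 108.6 and 208.2 in the other NDE libraries. Alternatives included fits with thymocyte and T cell or squamous and muscle covariates. Beyond those fits, the part of these cells in the members' values was not tested.

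Most members were higher in T1D than in DIO lungs. Between T1DC and DIOC lung 35 of 37 differences were above 0 with a median of 0.55, and between T1DE and DIOE lung 35 of 37 with a median of 0.54, and the medians of all genes were 0.00 and -0.02. No member was called in either, where 0.0215% and 0.387% of all genes were called higher and 0.00716% and 0.157% lower. By the looser rule 16 and 14 members were higher, against 1.22% and 1.4% of all genes, and 0 were lower, against 1.03% and 2.51%. The libraries did not overlap for 21 members in filtered air, against 6.43% of all genes, and for 18 in PM, against 8.48%, all higher in T1D. Markers of several other cells were lower in T1D than in DIO lungs. Averaged over both airs, all 6 T cell (median difference -0.32), all 6 B cell (-0.94), all 4 brown fat (-1.92), all 6 neutrophil (-1.79) and all 4 hepatocyte markers (-1.03) were lower, and 1 neutrophil marker was called. All 8 squamous (-1.55) and all 8 skeletal muscle markers (-0.55) were lower as well, though in filtered air alone 7 of 8 squamous and all 8 muscle markers were higher. Summed thymocyte markers were at 26.4 to 39.08 FPKM in DIOC, 16.81 to 35.25 in DIOE and 6.81 to 31.8 in T1DC lungs. They were at 17.28, 23.64 and 142.1 FPKM in T1DE1, T1DE2 and T1DE3. T1DE3 also had the highest median member level of all lungs, at 5.985 FPKM. Beyond fits with marker covariates, given below, the part of these cells in the members' values was not tested. The smallest p were those of Prc1 in filtered air (1.04 ± 0.23, adjusted p = 0.17) and of Cdc45, the helicase activator, in PM (0.72 ± 0.17, adjusted p = 0.0517). Cdc45 was at 1.17, 1.2 and 0.93 FPKM in DIOE and 1.92, 2.25 and 3.32 FPKM in T1DE lung. In a comparison averaged over both airs, added after the data were seen, 6 members were called higher in T1D than DIO lung and none lower, against 0.394% and 0.0859% of all genes. Prc1 was at 1.65, 2.1 and 1.72 FPKM in DIOC, 3.14, 1.96 and 1.88 in DIOE, 5.28, 4.93 and 4.25 in T1DC, and 3.45, 3.83 and 5.89 in T1DE lung (0.87 ± 0.16, adjusted p = 0.0293). Foxm1 was at 0.88, 1.15 and 0.68 FPKM in DIOC, 1.06, 0.9 and 1.02 in DIOE, 3.13, 2.08 and 2.08 in T1DC, and 2.1, 2.15 and 3.18 in T1DE lung (0.82 ± 0.16, adjusted p = 0.0299). Every T1D library was above every DIO library for both genes. Top2a (1.16 ± 0.23, adjusted p = 0.0317) was at 1.91 to 3.93 FPKM over the 6 DIO lungs and 6.06 to 10.69 over the 6 T1D lungs. Kif20a (0.67 ± 0.14, adjusted p = 0.0373) was at 0.9 to 1.71 and 1.75 to 3.54 FPKM. Cdc20 (0.81 ± 0.18, adjusted p = 0.044) was at 2.75 to 3.78 and 4.53 to 7.45 FPKM. Ccna2 (0.99 ± 0.23, adjusted p = 0.0487) was at 1.32 to 2.7 and 3.58 to 6.94 FPKM. The 6 calls became 0 without DIOC1, DIOE2, T1DC3, T1DE1 or T1DE3, 1 without DIOE1 and 2 without T1DC1. Over the fits without 1 library the difference of Top2a was 1.06 to 1.25 and that of Prc1 0.77 to 0.95, with adjusted p values of 0.035 to 0.0821 and 0.0283 to 0.0821. Without T1DE3, DIOE1 and DIOC3, the libraries with the fewest genes at 0, 1 member was called. A thymocyte and T cell covariate kept the 6 calls and added 9 others. A squamous and muscle covariate kept the 6 and added 1.

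No member was called between T1D and ND lungs, where 0.0787% of genes were called higher and 0.0286% lower in filtered air, and 0.179% and 0.107% in PM. Between T1DC and NDC lung the smallest p in each direction were those of Cdc20 (0.50 ± 0.25, adjusted p = 0.436) and Mcm6 (-0.37 ± 0.16, adjusted p = 0.365), and between T1DE and NDE lung those of Ccne2 (0.39 ± 0.13, adjusted p = 0.195) and Mcm4 (-0.15 ± 0.15, adjusted p = 0.704). Averaged over both airs, Prc1 (0.43 ± 0.16, adjusted p = 0.165) and Mcm4 (-0.20 ± 0.10, adjusted p = 0.304) had the smallest p between T1D and ND, where 0.293% of genes were called higher and 0.265% lower, and Ccna2 (-0.94 ± 0.23, adjusted p = 0.104) and Tyms (0.56 ± 0.64, adjusted p = 0.755) between DIO and ND, where 0.129% were higher and 0.0644% lower. Without NDE1, 7 members were called between DIO and ND.

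**Figure D4:**
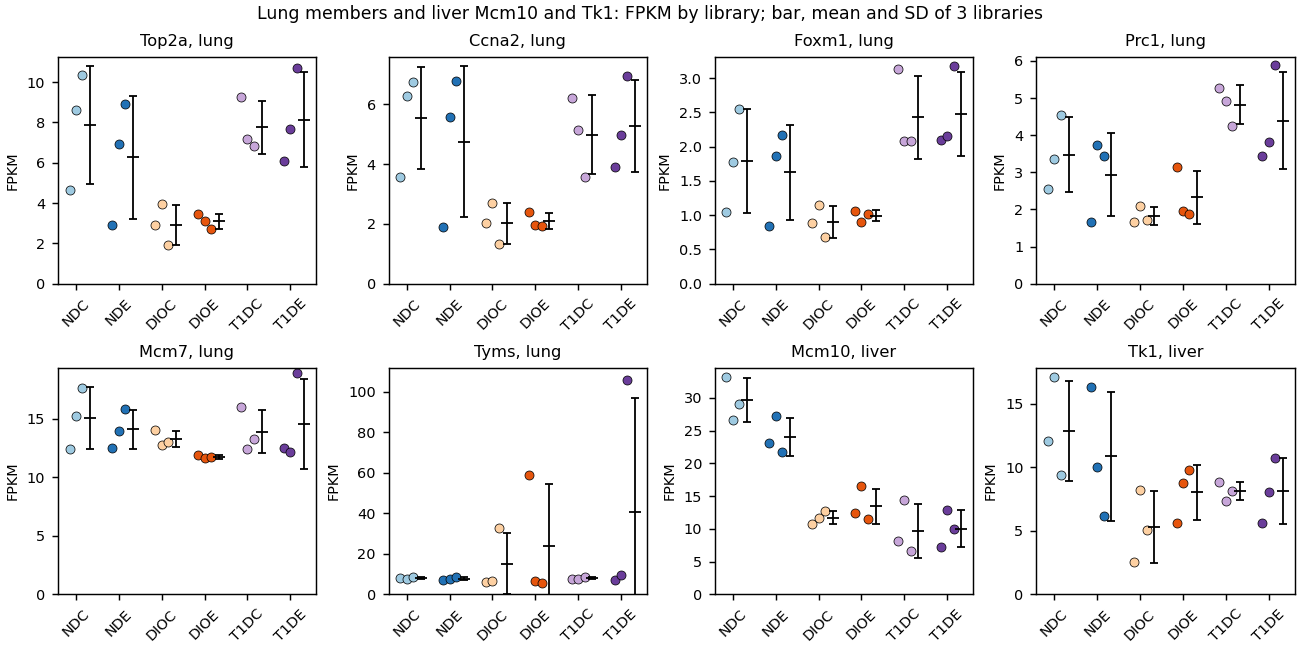
FPKM by library (points) with the mean and SD of 3 libraries (bars) for 6 members in lung, and for Mcm10 and Tk1 in liver. Top2a, Ccna2, Foxm1 and Prc1 are lower in DIO than in T1D lungs, Tyms is at 32.56, 59.06 and 105.78 FPKM in DIOC3, DIOE1 and T1DE3 and at 9.52 or less in the other lungs, and Mcm10 is higher in ND than in DIO and T1D livers.

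Tyms, thymidylate synthase, did not follow the other members in lung. It was at 32.56 FPKM in DIOC3, 59.06 FPKM in DIOE1 and 105.78 FPKM in T1DE3, and at 5.46 to 9.52 FPKM in the other 15 lung libraries. Genes of other kinds were high in the same 3 libraries. The zinc finger gene Zfp488 was at 106.97, 237.7 and 393.32 FPKM there and at 15.55 to 27.99 FPKM in the other lungs, and the olfactory receptor gene Olfr613 at 36.49, 76.59 and 129.88 FPKM and 4.87 to 9.45 FPKM. These 3 libraries were those with the fewest genes at 0, and the part of this in the Tyms values was not tested. Tyms and Olfr613 also lay in similar ranges in the other lungs and in liver, at 3.62 to 7.26 and 4.48 to 8.59 FPKM in liver. The reason was not tested, and the Tyms level is uncertain in both tissues. Tyms gave the smallest p among members above or below 0 in several lung comparisons (0.42 ± 0.91 in DIOC against NDC, adjusted p = 0.894, -0.45 ± 0.91 in T1DC against DIOC, adjusted p = 0.92, and 0.70 ± 0.91 in DIOE against NDE, adjusted p = 0.999). Without DIOC3 the first was -0.32 and the second 0.28, and without DIOE1 the third was -0.33, each with the sign turned. Gins2 was the member with the smallest p below 0 in T1DE against DIOE lung (-0.12 ± 0.23, adjusted p = 0.822), and without T1DE1 it was 0.06.

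Whether T1D moved the members differently in liver and lung was tested as a difference of differences over all 36 libraries, a comparison added after the data were seen. Lung and liver libraries were taken as independent, and whether any came from the same mouse was not tested. In PM, Cdc20 (1.33 ± 0.34, adjusted p = 0.0164), Kif20a (0.89 ± 0.26, adjusted p = 0.0354), Ube2c (1.39 ± 0.42, adjusted p = 0.0373) and Ccnb2 (1.45 ± 0.45, adjusted p = 0.0411) rose more in liver than in lung, against 5.02% of all genes. Mcm10 fell more in liver (-1.25 ± 0.30, adjusted p = 0.0107), against 0.612% of all genes. In filtered air the 1 member called was Mcm10 (-1.39 ± 0.30, adjusted p = 0.0108), against 0.264% of all genes lower and 1.95% higher. The 5 calls in PM became 1 to 3 without NDE2, NDE3, T1DE1 or T1DE2 of lung or NDE1, NDE2, T1DE2 or T1DE3 of liver, and 8 without lung NDE1. The 1 call in filtered air became 2 without lung NDC1 and 4 without liver T1DC2. For DIO no member was called between the tissues, where 0.188% of genes were higher and 0.215% lower in filtered air and 0.0834% and 0.0487% in PM, with the smallest p for Mcm10 (-0.89 ± 0.30, adjusted p = 0.17) and Mcm6 (0.64 ± 0.22, adjusted p = 0.175) in filtered air and for Mcm10 (-0.70 ± 0.30, adjusted p = 0.453) and Top2a (0.70 ± 0.38, adjusted p = 0.582) in PM.

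Other genes of the cell cycle were read from lists of replication (40 genes) and mitosis (53 genes). In the fit without a filter, 11 of 53 other mitosis genes and 1 of 40 other replication genes were called higher in T1DE than NDE liver and none lower, against 4.51% and 0.607% of all genes. The differences and p values of single genes that follow are from the fit with the filter of 1 FPKM in 3 libraries. For Ckap2 and Cenpm the T1D libraries alone were enough to meet that filter. Stmn1, which destabilises microtubules, was at 4.69, 5.09 and 4.65 FPKM in NDE and 9.42, 12.15 and 14.25 FPKM in T1DE liver (1.14 ± 0.15, adjusted p = 0.000163). Ckap2, a spindle protein, was at 0.02, 0.06 and 0.06 FPKM in NDE and 1.41, 1.54 and 2.16 FPKM in T1DE liver (1.36 ± 0.22, adjusted p = 0.000712). Cenpm, a kinetochore subunit, was at 0.59, 1.2 and 0.4 FPKM in NDC and 3.18, 3.66 and 3.15 FPKM in T1DC liver (1.35 ± 0.22, adjusted p = 0.00201), with T1DC2 the highest of its group here. In lung, Iqgap3 was the 1 gene of these lists called between T1DC and DIOC, at 0.31, 0.52 and 0.1 FPKM in DIOC and 1.62, 1.42 and 1.89 FPKM in T1DC (1.02 ± 0.15, adjusted p = 0.0314).

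Upstream of the members, cyclin D1 and the CDK inhibitor p21 both rose in T1D liver. Ccnd1, which carries growth signals into G1, was at 5.14, 7.83 and 4.72 FPKM in NDC, 5.51, 7.63 and 6.42 in NDE, 18.83, 12.21 and 22.24 in T1DC, and 49.56, 26.85 and 35.83 in T1DE liver. It was 1.43 ± 0.29 higher in T1DC than NDC (adjusted p = 0.00658) and 2.32 ± 0.29 higher in T1DE than NDE (adjusted p = 9.46e-05). Cdkn1a, the p53 target p21 that inhibits cyclin-dependent kinases, was at 2.08, 6.54 and 1.53 FPKM in NDC, 26.01, 28.21 and 35.35 in DIOC, and 65.7, 82.27 and 181.69 in T1DC liver. It was 2.98 ± 0.35 higher in DIOC (adjusted p = 0.000854) and 4.69 ± 0.35 higher in T1DC (adjusted p = 1.3e-06). DIO livers thus had a raised Cdkn1a while no member was called higher in them. In lung Cdkn1a was called higher in T1DC than NDC (2.02 ± 0.32, adjusted p = 0.0192), at 163.67, 165.01 and 384.07 FPKM against 65.02, 50.78 and 44.97 FPKM. E2f8, an atypical E2F that represses S phase genes, fell in T1D liver, from 3.01, 5.39 and 5.07 FPKM in NDE to 0.99, 0.55 and 0.61 FPKM in T1DE (-1.66 ± 0.20, adjusted p = 9.2e-05). Of the other D cyclins and CDK inhibitors, Ccnd2 (0.59 ± 0.15, adjusted p = 0.00848) and Cdkn2c (0.70 ± 0.19, adjusted p = 0.0142) were higher in T1DE than NDE liver, Cdkn2d was higher in T1DE than DIOE liver (0.75 ± 0.18, adjusted p = 0.00331), and Ccnd3 and Cdkn1b were called in no comparison within a tissue.

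**Figure D5:**
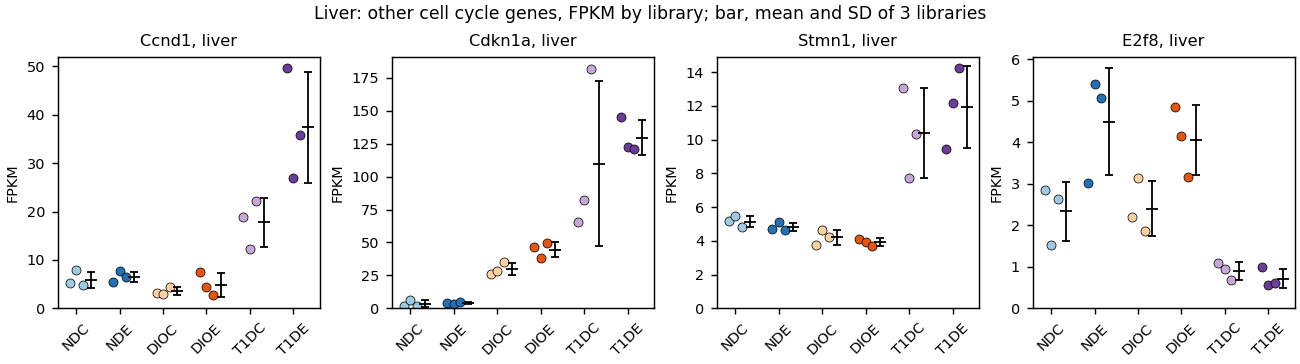
FPKM of Ccnd1, Cdkn1a, Stmn1 and E2f8 in each liver library (points, by group) with the mean and SD of 3 libraries (bars). Ccnd1, Cdkn1a and Stmn1 are highest in the T1D livers, Cdkn1a is also above ND levels in DIO livers, and E2f8 is lowest in the T1D livers.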

How the data were processed

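RNA from about 5 mg of frozen lung or liver was selected with oligo-dT, primed at random and sequenced on the BGISEQ-500 by the authors, and the use of strand in counting is not stated in these sources. Per the labels and the study's methods, the authors filtered reads with SOAPnuke, mapped them to mouse transcripts with Bowtie2 (the submitters' processing notes give GRCm38) and deposited 1 FPKM value per gene and library, computed with RSEM and rounded to 2 decimals; replicates were not pooled. FPKM holds no counts, so no count model was used, and depth was estimated from the spacing of low values.

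Values were taken as log2(FPKM + 1) and tested with limma 3.58.1 in R 4.3.3 (moderated test with a trend, 6 group means per tissue, all 18 libraries of a tissue, or 36 for comparisons between tissues), for genes that reached 1 FPKM in 3 libraries. P-values were adjusted by Benjamini and Hochberg over all genes tested, and genes were called where the adjusted p lay under 0.05 with a fold above 1.5. Differences are on the log2(FPKM + 1) scale, which understates changes of low genes. Named are members called, the smallest p in each direction where none was called, the most abundant member of each role, and from the other lists called genes, D cyclins and CDK inhibitors. Other values given (Mcm2, Mcm3, Mcm6, Ccne2, Cdc6 and Foxm1 in liver and Birc5 in lung among them) were chosen after their values were seen. The members and lists were chosen with earlier results of these data known. The fit was tested on simulated data, where 90% to 98% of the changed genes were recovered. Those genes were all more abundant than the 26 of 38 members that averaged under 1 FPKM in liver. The simulation therefore does not cover the levels of those members. Alternatives were other scalings, pseudocounts, filters, covariates, sample sets, a replicate block and leaving out libraries. Figures used matplotlib 3.10.9.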

Additional observations from a re-analysis of the deposited data

Results flagged for a closer look

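The T1D difference from ND mice was not the same in liver and lung for some members, tested with limma as liver minus lung over all 36 libraries. In PM it was higher in liver for Cdc20 (1.33), Ccnb2 (1.45), Ube2c (1.39) and Kif20a (0.885) on the log2 scale and lower for Mcm10 (-1.25), and in filtered air lower for Mcm10 (-1.39). Among the other lists it was higher in liver in PM for Cdkn1a (3.44), Ccnd1 (2.32), Stmn1 (1.25), Cdc25b (0.776), an activator of cyclin-dependent kinases, and Pttg1 (0.744), the securin that holds sister chromatids together, and lower for E2f8 (-1.70) and Cdk2 (-0.599), the kinase of S phase. In filtered air it was higher in liver for Cdkn1a (2.67), Ccnd1 (1.28) and Stmn1 (0.880). The DIO difference from ND mice in PM was higher in liver for Cdkn1a (3.02).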

How the results depend on the processing

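Between T1DE and NDE liver the members called numbered 16 and stayed at 15 or 16 without each library in turn, and 14 of the 16 calls held in all of those fits. Median-ratio scaling kept 13 of those 16 calls and quantile scaling 11. A filter on the mean tested 12 members and called 4 there, 3 between T1DE and DIOE and 2 between T1DC and DIOC. Between T1DC and NDC liver the 8 calls became 5 with median-ratio scaling or no filter, 4 with quantile scaling, 3 with the mean filter, 1 with those groups alone (1 also between T1DC and DIOC) and 3 to 15 without 1 library; between T1DC and DIOC the 14 became 6 to 15 and between DIOC and NDC the 1 became 1 to 2. Without the liver libraries that held lung transcripts, a setting chosen after seeing the data, both differences from NDC had 0 calls.

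In lung, T1DE against DIOE had 1 call with median-ratio or quantile scaling, a pseudocount of 0.1, or a thymocyte and T cell covariate, and T1DC against DIOC 1 with that covariate. Averaged over both airs, the 6 calls of T1D against DIO became 15 with quantile scaling or that covariate, 3 with no filter, 1 without the 3 libraries with the fewest genes at 0 (chosen after seeing the data) and 0 to 6 without 1 library, and DIO against ND had 2 with quantile scaling and 0 to 7 without 1 library. The liver minus lung difference of T1D in PM (5 calls) became 1 with quantile scaling, 8 with a pseudocount of 0.1, 3 with no filter, 2 with the groups compared alone and 1 to 8 without 1 library. In filtered air (1 call) it became 0 with the pseudocount or the groups alone and 1 to 4 without 1 library.

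Signs turned as follows. Tyms in lung was -0.316 in DIOC against NDC, 0.279 in T1DC against DIOC, -0.334 in DIOE against NDE and -0.325 in DIO against ND without the 3 libraries with the fewest genes at 0, the first 3 also without DIOC3 or DIOE1 (without 1 library, -0.316 to 0.809, -0.845 to 0.279 and -0.334 to 1.27), and 0.146 in T1DC against DIOC with the thymocyte and T cell covariate. Gins2 in T1DE against DIOE lung was 0.0509 with a squamous and muscle covariate and -0.282 to 0.0636 without 1 library, the highest without T1DE1. The DIO minus ND difference of the PM effect on Mcm7 in lung was -0.192 to 0.0461 without 1 library, above 0 without NDC1 (0.0461) and without NDE3 (0.00102). In lung against liver of NDC, quantile scaling called 19 and gave Aurka -0.404, Ccne1 -0.615, Cdc45 -0.404, Cdk1 -0.103, Cdk2 -0.208, Cdk6 -0.513, Cdt1 -0.227 and Rrm2 -0.0825, and median-ratio scaling gave Cdk2 -0.131 and Cdk6 -0.0916. The cause of these changes was not tested.

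Within a tissue, deviations of same-numbered libraries of different groups correlated with medians of 0.0406 in lung and 0.0218 in liver. Those of other numbers had medians of -0.0684 and 0.00628. Single same-numbered pairs ran from -0.600 to 0.758 in lung and from -0.275 to 0.270 in liver. Lung and liver libraries of the same number were not compared. Whether they came from the same mouse was not tested, and the fits over 36 libraries took them as independent. With a replicate block 16 members were called between T1DE and NDE liver and 8 between T1DC and NDC, as without it, and the 6 calls of T1D against DIO lung became 5. Many liver members rest on few fragments, which limits what could be detected there.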
